A study of Mus musculus with 5 samples.

Results

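The 10 genes described here are those through which the intercalated cells of the renal collecting duct move acid and base: Atp6v1b1, Atp6v1c2, Atp6v1g3, Atp6v0a4, Atp6v0d2, Foxi1, Rhbg, Slc4a1, Aqp6 and Slc26a4. They were chosen by symbol, each symbol matched 1 gene identifier, and they are 10 of the 28692 genes counted in each of 4 droplet single-cell libraries of mouse kidney. Every library pooled kidneys of 3 C57/BL6 mice aged 8 weeks, dissociated on ice, with live cells sorted by exclusion of the dye DAPI before 10x 3′ v2 capture. The first library was of sham-operated kidneys at day 0. The next were of kidneys at day 2 and at day 7 of unilateral ureteric obstruction (UUO). In UUO 1 ureter is tied off so that urine backs up into its kidney. The last was of kidneys 7 days after the obstruction was reversed, which is experimental day 14. Plate-based Smart-seq2 wells of the same series, in which the time points are mixed, enter no comparison. There was 1 library per time point, so a difference between time points cannot be told apart from a difference between libraries: no test between libraries was possible, no p-value is given, and all intervals are 95% intervals for counting error. UMIs (unique molecular identifiers, which count captured transcripts once) were read in tubule cells with no UMI of Ptprc, the pan-leukocyte gene CD45.

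An intercalated cell secretes protons or bicarbonate with the vacuolar H+-ATPase (V-ATPase), a rotary pump made of a peripheral V1 part that splits ATP and a membrane V0 part that conducts protons. Most of its subunits are made in every cell, but intercalated cells use their own versions of several: Atp6v1b1, Atp6v1c2 and Atp6v1g3 in V1, and Atp6v0a4 and Atp6v0d2 in V0. Type A cells secrete acid into the urine and return bicarbonate to blood through Slc4a1, the anion exchanger AE1 that red blood cells also use as band 3, and they carry Aqp6, an intracellular water and anion channel. Type B cells secrete bicarbonate through Slc26a4, pendrin, a chloride-bicarbonate exchanger. Foxi1 is the forkhead transcription factor needed for intercalated cells to form, and Rhbg is a basolateral ammonia transporter of the distal nephron and collecting duct.

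The genes lie apart from each other in the genome (GRCm38, GENCODE vM21) and all are protein coding. The V1 subunit genes are Atp6v1b1 at chr6:83742990-83758855 on the plus strand, Atp6v1c2 at chr12:17284721-17329359 on the minus strand and Atp6v1g3 at chr1:138273738-138289462 on the plus strand. The V0 subunit genes are Atp6v0a4 at chr6:38048483-38124586 and Atp6v0d2 at chr4:19876841-19922605, both on the minus strand. Foxi1 is at chr11:34204338-34208089 and Rhbg at chr3:88242874-88254709, both on the minus strand. The exchangers and the channel are Slc4a1 at chr11:102348824-102366203 on the minus strand, Slc26a4 at chr12:31519827-31559969 on the minus strand and Aqp6 at chr15:99601400-99605477 on the plus strand.

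RefSeq start-site windows of 300 bases (250 before the start and 50 after, GRCm38.p6) were found for 7 of the 10 genes and not for Atp6v0d2, Rhbg and Slc4a1. They were searched on both strands for TGTTTA, the core that forkhead factors such as Foxi1 are known to bind, whose reverse complement is TAAACA. Of the 7 windows 1 held it, that of Atp6v1b1, 98 bases before the start, and 4416 of 32851 windows over all genes held it (13.4%). A match in a window is a description of its letters, and factor binding was not measured. The 250 bases before the start are printed for Atp6v1b1 because it carries the match (in capitals), and for Aqp6 and Slc26a4 because these are the type A and type B genes that the results below turn on; each reads 5′ to 3′ on the gene's own strand, at chr6:83742767-83743016, chr15:99600950-99601199 and chr12:31559985-31560234.
Atp6v1b1: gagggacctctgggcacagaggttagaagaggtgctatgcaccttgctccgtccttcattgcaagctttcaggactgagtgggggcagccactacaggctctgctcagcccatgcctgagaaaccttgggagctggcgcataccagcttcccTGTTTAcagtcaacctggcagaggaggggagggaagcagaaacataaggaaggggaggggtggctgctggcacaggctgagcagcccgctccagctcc
Aqp6: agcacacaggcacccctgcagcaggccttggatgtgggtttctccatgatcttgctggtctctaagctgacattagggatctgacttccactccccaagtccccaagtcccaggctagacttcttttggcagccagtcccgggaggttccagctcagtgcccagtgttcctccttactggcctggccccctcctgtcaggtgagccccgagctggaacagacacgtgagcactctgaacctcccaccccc
Slc26a4: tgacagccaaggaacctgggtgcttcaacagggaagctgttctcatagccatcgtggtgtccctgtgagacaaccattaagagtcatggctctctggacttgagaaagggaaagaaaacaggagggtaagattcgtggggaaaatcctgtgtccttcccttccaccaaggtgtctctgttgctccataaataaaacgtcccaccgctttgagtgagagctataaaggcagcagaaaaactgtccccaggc

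The libraries held 5938, 2739, 4504 and 3695 cells in the order sham, day 2, day 7 and reversed, and 18649637 to 30462683 UMIs each. The median share of mitochondrial UMIs per cell was 40.6% in sham, 16.2% at day 2, 3.00% at day 7 and 14.0% after reversal, over libraries that differ in their mix of cells. Within tubule cells it was 34.9%, 21.1%, 12.4% and 28.3%, and within intercalated-like cells 27.3%, 12.8%, 10.5% and 15.7%, highest in sham each time. After cells with under 200 genes or over 50% mitochondrial UMIs were dropped, along with removal of 48 to 187 likely doublets per library, 3372, 1164, 713 and 1528 tubule cells without Ptprc remained, 6777 in all. The condition on Ptprc had removed 0.560%, 6.58%, 19.3% and 7.62% of the cells in tubule clusters, so it cut the libraries unequally. Any 2 libraries shared 16 to 39 cell barcodes, 0.514% to 0.974% of the smaller library.

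Intercalated-like cells were found by clustering without the 10 genes and were named from other markers (Tmem213, Rhcg, Slc4a9, Slc26a7, Dmrt2, Hmx2, Insrr, Hepacam2, Oxgr1 and Car12), so that the 10 genes could be read in them. They numbered 353, of which 188 were called type A-like and 165 type B-like by Slc26a7, Kit, Dmrt2 and Adgrf5 set against Slc4a9, Insrr, Hmx2 and Oxgr1. Of these 8 genes Oxgr1 went against its type in these data, at 240 CPM in type A-like cells (217 to 266) and 185 in type B-like cells (165 to 207). When every cell was thinned to 1000 UMIs, which all tubule and endothelial cells reached, 90.4% of them held at least 2 of the 7 genes that types A and B are both known to use (the 5 subunits, Foxi1 and Rhbg). The same held for 1.09% of other tubule cells, 0.515% of proximal tubule cells, 8.33% of principal-like cells (the neighbouring cell type of the collecting duct, which handles sodium and water) and 0.168% of endothelial cells. Among principal-like cells it held for 23.1% in sham (13.5% to 35.2%) and 6.35%, 4.505% and 2.74% in the other libraries, where intercalated-like cells were at 97.6%, 88.2%, 87.3% and 93.3%.

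Levels are given as CPM, a gene's counts per 1000000 UMIs of the summed cells, and are compared within a gene only. All 10 genes were at least 2-fold higher in intercalated-like cells than in the remaining tubule cells in each of the 4 libraries. The share of all genes past 2-fold was not counted for this comparison. The median log2 ratio over the 10 was 7.21 in sham, 5.84 at day 2, 5.95 at day 7 and 6.30 after reversal. Over 17 V-ATPase subunit genes that most cells use, the medians were 1.62, 1.19, 1.39 and 1.72, with 9 to 10 of 17 past 2-fold. No minimum of UMIs was set for these ratios. Atp6v0c, with 4 UMIs in intercalated-like and 5 in other tubule cells, gave the day 7 median. It was among the genes past 2-fold at day 7 and at day 2 (7 and 16 UMIs), with intervals that included 0. Over the 4 libraries together Foxi1 had the largest part of its tubule UMIs in intercalated-like cells, at 94.7%, and by library it was 89.6% in sham and 93.5% to 96.3% in the others. At day 7 Slc4a1 (100%), Aqp6 (97.0%) and Atp6v1g3 (96.7%) were above Foxi1 (96.2%). Counted over all kept cells, those with Ptprc included, Foxi1 had 71.9% of its UMIs there, below Slc4a1 (74.0%) and Aqp6 (72.4%). By that count Foxi1 was at 84% in sham and 55.7% at day 7. Atp6v0a4 had the loosest: 15.1%, 46.0%, 47.6% and 38.2% of its tubule UMIs lay in intercalated-like cells, and it stood at 97.2 to 121 CPM in proximal tubule cells. Intercalated-like cells held 2.85%, 15.04%, 16.5% and 8.92% of all tubule UMIs in those libraries, so every gene was enriched in them, Atp6v0a4 included.

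Over the 4 libraries together the order of cell classes differed by gene. Atp6v1g3 stood at 6370 CPM in type B-like cells (6250 to 6492), 4255 in type A-like cells (4154 to 4357) and 116 in principal-like cells, and type B-like cells were the higher class in each of the 4 libraries. Atp6v1c2 had the same pooled order, at 529 CPM in type B-like (495 to 565) and 322 in type A-like cells (295 to 352), but in sham the types overlapped, at 691 (589 to 807) and 707 (541 to 908). Pooled values weigh the libraries differently in each type, because the mix of types differed between libraries. Atp6v1b1 had the opposite order, at 597 CPM in type A-like (560 to 637) and 475 in type B-like cells (442 to 509). By library the types overlapped in sham (707 and 665), at day 7 and after reversal (713 and 632). Principal-like cells followed at 112 (98.7 to 126), then distal convoluted or connecting tubule cells at 73.8 (51.4 to 103). Thick ascending limb cells were next at 54.4 (48.2 to 61.2), and neighbours in this order overlapped. Of the 97 distal convoluted or connecting tubule cells, 43 were from sham (41.6 CPM), 3 from day 2 and 51 from after reversal (85.8 CPM). The intervals of the types overlapped for Atp6v0a4, at 551 CPM in type A-like (515 to 589) and 539 in type B-like cells (505 to 575), and for Foxi1, at 504 (469 to 540) and 466 (434 to 500). By library Foxi1 was higher in type A-like cells at day 2, at 684 (612 to 762.1) against 428 (383 to 477), and the intervals overlapped in the other libraries. Atp6v0d2 stood at 761.8 CPM in type B-like (721 to 805) and 654 in type A-like cells (615 to 695), with thick ascending limb cells next at 35.4. By library its type intervals overlapped in sham, at day 2 (707 and 709) and after reversal.

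The genes said to mark 1 type were the most unequal. Slc4a1 stood at 323 CPM in type A-like cells (296 to 352) and at 1.18 in type B-like cells, where 2 UMIs were counted in 165 cells (0.143 to 4.28). Aqp6 stood at 882 CPM in type A-like (836 to 929) and 36.7 in type B-like cells (28.1 to 47.0). Slc26a4 ran the other way, at 964 CPM in type B-like (918 to 1012) and 23.3 in type A-like cells (16.4 to 32.1). Rhbg, which both types hold, was higher in type A-like cells, at 639 CPM (600.3 to 680) against 283 (258 to 309), and principal-like cells followed at 142 (127 to 158). In principal-like cells Rhbg stood at 491 CPM in sham (422 to 569), 70.1 at day 2, 45.01 at day 7 and 135 after reversal.

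**Figure D1:**
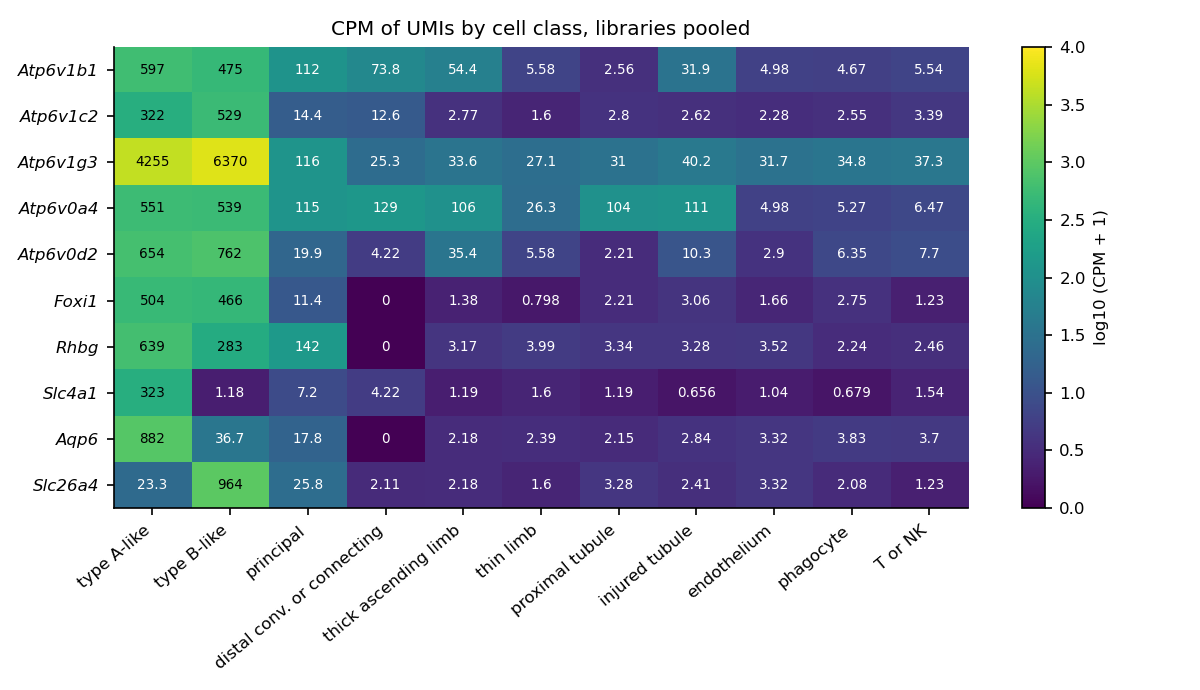
Level of each of the 10 genes (CPM printed in each field, colour on a log10 scale) in the cell classes, summed over the 4 droplet libraries. Slc4a1 and Aqp6 are high in type A-like cells (323 and 882 CPM), Slc26a4 in type B-like cells (964 CPM), and the pump subunits and Foxi1 in both.

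Background from free RNA was read in endothelial cells, which should lack these genes. Without thinning, 10.99% of 1192 endothelial cells held a UMI of Atp6v1g3 at a median depth of 3403 UMIs, against 97.5% of intercalated-like cells, and for the other 9 genes the endothelial share was 0.42% to 2.01%. After thinning the endothelial share was 3.69% for Atp6v1g3 and 0.0839% to 0.671% for the others. Atp6v1g3 in proximal tubule cells (31.0 CPM, 2.86% of thinned cells) was at the level of endothelial cells (31.7 CPM) and is read as background.

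Sham had 42 intercalated-like cells, 1.25% of its tubule cells (0.899% to 1.68%), and the day 2 library had 119, or 10.2% (8.54% to 12.1%). The day 7 library had 102, or 14.3% (11.8% to 17.1%), and the reversed library 90, or 5.89% (4.76% to 7.19%). The proximal tubule share of the same denominator was 88.6% in sham and 13.1%, 18.2% and 65.6% in the libraries that followed. Among tubule cells outside the proximal tubule, the share was 10.9%, 11.8%, 17.5% and 17.1%. Among intercalated-like and principal-like cells together, it was 39.25% in sham and 65.38% at day 2 (57.99% to 72.27%). It was 47.89% at day 7 (41.01% to 54.82%) and 55.21% after reversal. By this last denominator day 2 and not day 7 was the highest library, so the order depends on the denominator. Of the intercalated-like cells, 16 of 42 were type A-like in sham (38.1%, 23.6% to 54.4%) and 48 of 119 at day 2 (40.3%, 31.4% to 49.7%). At day 7 there were 68 of 102 (66.7%, 56.6% to 75.7%), and 56 of 90 once the obstruction was reversed (62.2%, 51.4% to 72.2%). The intervals of day 7 and of reversal lay above that of day 2. Counting cells by the exchangers themselves gave another order, with 12 cells with Slc4a1 alone and 24 with Slc26a4 alone in sham, 27 and 65 at day 2, 17 and 35 at day 7 and 27 and 35 after reversal. At day 7, 42 of the 68 type A-like cells held neither. The intercalated markers that are not among the 10 genes summed to 7147, 3637, 2938 and 4549 CPM in these cells, so genes used for naming also differed between libraries, and their part in the shares was not tested.

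Across all tubule cells, the 10 genes together made up 545 CPM in sham (531 to 559), 1636 at day 2 (1609 to 1664), 1541 at day 7 (1508 to 1575) and 1078 after reversal (1057 to 1099). Atp6v1g3 supplied 43.3% to 54.8% of that sum. Intercalated-like cells held 67.1%, 88.8%, 87.5% and 81.3% of the sum, and in tubule cells outside them it was 185, 216, 231 and 221 CPM, of which Atp6v0a4 gave 100.2, 97.5, 106 and 110. Other members differed more there between libraries. Atp6v1b1 was at 13.1, 20.7, 53.4 and 29.2 CPM outside intercalated-like cells, Atp6v0d2 at 2.57, 18.7, 18.5 and 9.78, and Rhbg at 19.7, 9.13, 9.23 and 13.0, so the first 2 were lowest in sham and Rhbg was highest there. In summed tubule cells, more cells of a type and more RNA per cell cannot be told apart, so the same genes are given below within intercalated-like cells.

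Of the V1 subunits in all tubule cells, Atp6v1g3 stood at 236 CPM in sham, 896 at day 2, 766 at day 7 and 490 after reversal. Atp6v1b1 stood at 32.1, 87.3, 118 and 87.2, and Atp6v1c2 at 23.5, 56.4, 55.3 and 53.1. Sham was the lowest library for all of them, and for Atp6v1b1 and Atp6v1c2 the library after reversal was close to the day 2 library. Of the V0 subunits, Atp6v0d2 stood at 21.5, 122, 131 and 74.7 CPM, and Atp6v0a4, which proximal tubule cells also hold, at 115, 153, 168 and 162. Foxi1 stood at 18.8, 82.3, 69.4 and 44.2 CPM, and Rhbg at 37.2, 77.0, 57.5 and 60.0. Aqp6 stood at 13.1, 74.4, 99.7 and 29.9, Slc26a4 at 32.1, 68.1, 68.1 and 55.7, and Slc4a1 at 15.8, 18.8, 7.90 and 21.2. Slc4a1 was the member with its lowest value at day 7, the library in which Aqp6, the other type A gene, had its highest.

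**Figure D2:**
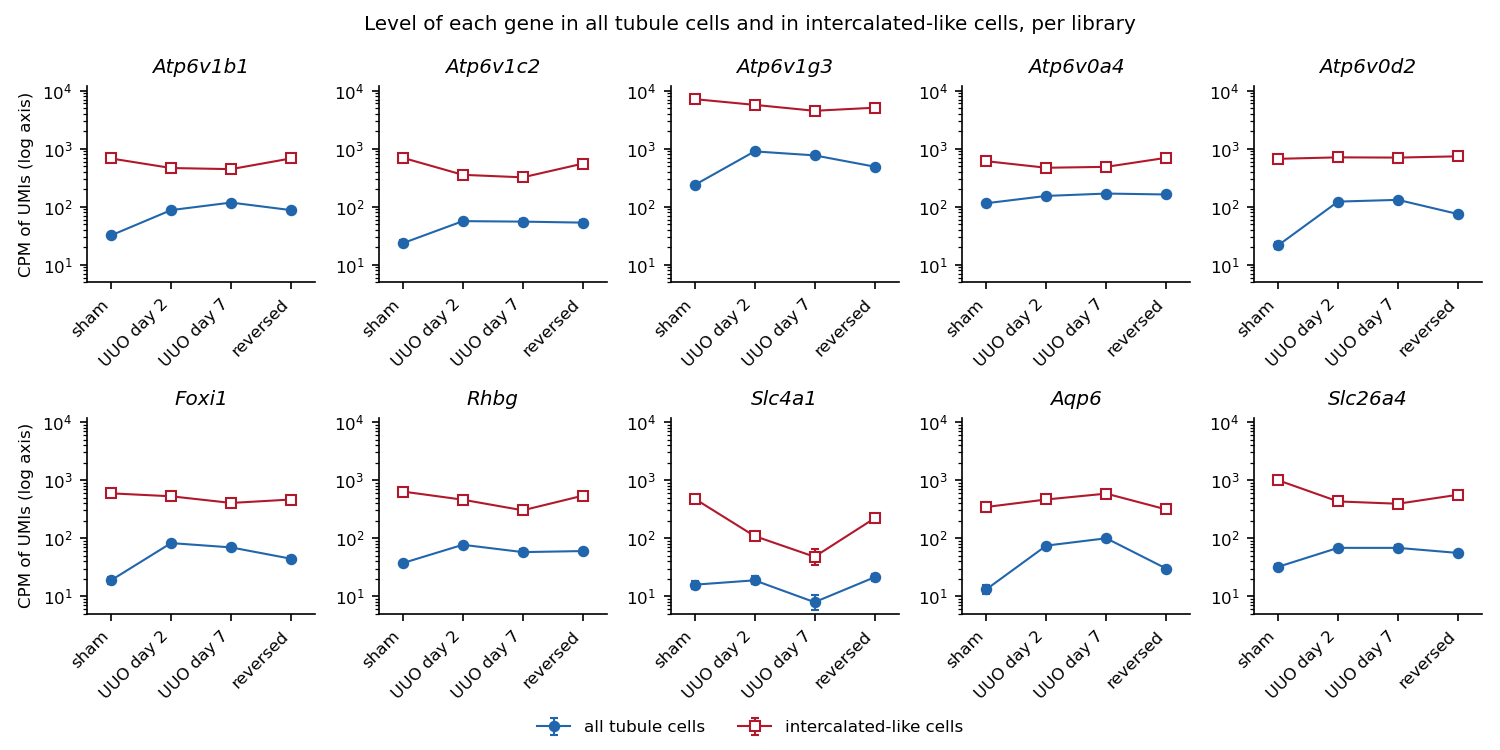
Level of each gene (CPM, log axis) in all tubule cells and in intercalated-like cells of each library, 1 library per time point, with 95% Poisson intervals. In tubule cells most genes are lowest in sham, whereas in intercalated-like cells Slc4a1 is highest in sham (479 CPM) and lowest at day 7 (47.9 CPM).

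In tubule cells at day 2, 8 of the 10 genes were more than 2-fold above sham (log2 of CPM + 1 above 1), where 20.4% of the 11754 genes tested were, and 0 were past 2-fold below it (3.98%). The median log2 ratio was 1.32 over the 10 and 0.49 over all genes. Atp6v0d2 (2.45, 2.26 to 2.65), Aqp6 (2.42) and Foxi1 (2.07) had the highest ratios, and Atp6v0a4 (0.42) and Slc4a1 (0.24, -0.07 to 0.54) did not pass. Between day 2 and day 7, 1 gene was past 2-fold lower, Slc4a1 at -1.15 (1.34% of genes tested), and 0 were higher (7.20%), with a median of -0.01 against 0.22 over all genes. From day 7 to reversal, Slc4a1 was higher at 1.32 (3.83%) and Aqp6 lower at -1.70 (6.07%), with a median of -0.36 against -0.31. After reversal 6 of 10 were still past 2-fold above sham (19.0%) and 0 below it (0.318%), with a median of 1.09 against 0.42, namely Atp6v1b1, Atp6v1c2, Atp6v1g3, Atp6v0d2, Foxi1 and Aqp6. TMM scaling, which centres the middle of the gene distribution, shifted the 4 tubule comparisons by -0.52, -0.36, 0.36 and -0.52, under which Atp6v0a4 (-0.11) and Slc4a1 (-0.26) at day 2 turned below sham and 4 of 10 genes passed above it, where 10.5% of all genes did and 8.92% passed below. Under it Atp6v0a4 and Slc4a1 also turned below sham after reversal, at -0.02 and -0.09.

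**Figure D3:**
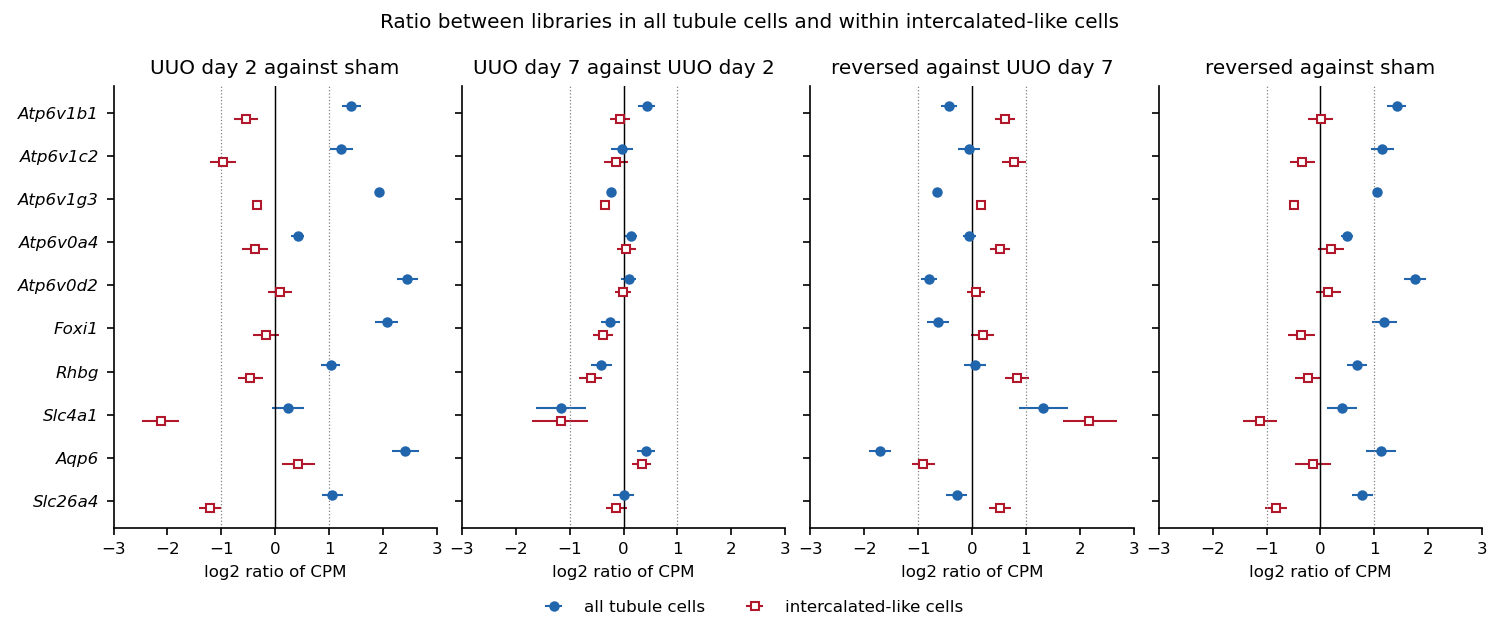
Log2 ratio of each gene in the 4 comparisons of libraries, in tubule cells and in intercalated-like cells, with 95% counting intervals. In tubule cells 8 of 10 genes lie above 1 at day 2 against sham, and in intercalated-like cells none does and Slc4a1 (-2.13) and Slc26a4 (-1.21) lie below -1.

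Within intercalated-like cells the pattern was different, because none of the 10 was past 2-fold above sham at day 2 (10.8% of 5808 genes tested were) and 2 were past 2-fold below it (3.48%), both of them exchangers. Slc4a1 stood at 479 CPM in sham (406 to 562), 109 at day 2 (91.3 to 129), 47.9 at day 7 (34.5 to 64.7) and 220 after reversal (189 to 254). Its log2 ratio was -2.13 at day 2 against sham (-2.47 to -1.79), -1.17 at day 7 against day 2 (-1.69 to -0.67), 2.18 after reversal against day 7 (1.69 to 2.69) and -1.12 after reversal against sham (-1.44 to -0.80). It was the 1 member past 2-fold in the last 3 of these comparisons, where 1.72%, 1.79% and 1.86% of genes tested passed in the same direction. In the opposite direction 0 members and 3.48%, 2.53% and 10.3% of genes passed. With cells of at most 20% mitochondrial UMIs, of which sham had 8 intercalated-like (2 type A-like and 6 type B-like), the Slc4a1 ratio to sham was no longer past 2-fold, at -0.98 at day 2 and -0.32 after reversal. Slc26a4 stood at 996, 430, 392 and 560 CPM, with a log2 ratio of -1.21 at day 2 against sham (-1.41 to -1.01). The median log2 ratio over the 10 was -0.42 at day 2 against sham, -0.14 at day 7 against day 2, 0.52 after reversal against day 7 and -0.28 after reversal against sham, beside 0.08, 0.10, 0.02 and 0.18 over all genes.

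In CPM, the pump subunits differed less between libraries than the exchangers did. In intercalated-like cells Atp6v1g3 stood at 7128, 5679, 4489 and 5069 CPM in the usual order, Atp6v1b1 at 677, 464, 443 and 679, and Atp6v1c2 at 696, 354, 320 and 552. All 3 V1 genes were lowest at day 7, and Atp6v1b1 after reversal was at its sham level. Of the V0 genes, Atp6v0d2 stood at 667, 708, 701 and 737 CPM, the steadiest of the 10 over the libraries, and Atp6v0a4 at 608, 468, 486 and 696. Foxi1 stood at 592, 527, 405 and 464 CPM, and Rhbg at 636, 460, 302 and 540. From day 7 to reversal 9 of the 10 genes had a ratio above 0, where the median over all genes tested was 0.02. The exception was Aqp6, which stood at 345, 464, 586 and 313 CPM (-0.90).

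In type A-like cells, leaving aside Slc26a4 with 1 to 20 UMIs per library, Slc4a1 had the widest range of the set from its highest to its lowest library. It stood at 1774 CPM in sham (1504 to 2078, 153 UMIs in 16 cells), 279 at day 2 (233 to 330, 134 UMIs in 48 cells), 78.8 at day 7 (56.8 to 106, 42 UMIs in 68 cells) and 377 after reversal (324 to 436, 184 UMIs in 56 cells). Sham was the highest library and day 7 the lowest, and the intervals of day 2 and reversal were the ones that overlapped. The log2 ratios were -2.67 at day 2 against sham (-3.01 to -2.32), -1.81 at day 7 against day 2 (-2.34 to -1.30), 2.24 after reversal against day 7 (1.76 to 2.76) and -2.23 after reversal against sham (-2.55 to -1.91). At the level of cells, 2 of 16 type A-like cells held no UMI of the gene in sham, 21 of 48 at day 2, 50 of 68 at day 7 and 29 of 56 after reversal. The median cell held 9 UMIs in sham, 1 at day 2, 0 at day 7 and 0 after reversal, while the highest cell held 25, 29, 10 and 17.

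The order of sham, day 2 and day 7 held at equal depth. The median type A-like cell held 4998 UMIs in sham and 10550, 7388 and 8351 in the other libraries, so sham cells were the shallowest. At 1000 UMIs per cell, 56.3% of type A-like cells held Slc4a1 in sham, 25% at day 2, 7.35% at day 7 and 19.6% after reversal, and unthinned 87.5%, 56.3%, 26.5% and 48.2%. In endothelial cells, with median depths of 2349 to 3746 UMIs, the unthinned share was 0% to 1.12%. The sham value rests on 16 cells, of which 2 had at most 20% mitochondrial UMIs, and 1 cell supplied 16.3% of the Slc4a1 UMIs. Slc4a1 is also a red-cell gene, so other erythroid genes were read in the same cells. In type A-like cells the globin genes Hbb-bs, Hbb-bt, Hba-a1 and Hba-a2 were at 0 in sham, where Slc4a1 was highest, and Alas2, Hemgn and Klf1 were at 0 in every library. The globin genes alone gave 18.7, 200.7 and 127 CPM at day 2, at day 7 and after reversal.

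Aqp6, the other type A gene, had the same order as Slc4a1 from sham to day 7 but not after reversal. In type A-like cells it stood at 1252 CPM in sham (1027 to 1512), 1119 at day 2, 947 at day 7 and 512 after reversal (451 to 580). It was lowest after reversal, whereas Slc4a1 was lowest at day 7. Its log2 ratio was -0.89 after reversal against day 7 and -1.29 after reversal against sham (-1.62 to -0.95). Atp6v1c2 was the other gene past 2-fold at day 2 against sham, at 707, 229, 266 and 408 CPM and a log2 ratio of -1.62 (-2.09 to -1.15). Rhbg stood at 858, 763, 452 and 682 CPM, Foxi1 at 499, 684, 386 and 455, and Atp6v1g3 at 4800, 4876, 3894 and 3940. Atp6v1b1 stood at 707, 576, 493 and 713 CPM, Atp6v0a4 at 614, 482, 465 and 701, and Atp6v0d2 at 568, 709, 585 and 690. Each of these last 6 genes stayed within a 2-fold range over the libraries. At 20% mitochondrial UMIs, which leaves 2 sham cells, Foxi1 (1.62 at day 2 and 1.07 after reversal), Atp6v1b1 (1.31 and 1.63) and, after reversal, Atp6v0a4 (1.06) were past 2-fold above sham.

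By count, 2 of the 9 members tested in type A-like cells were past 2-fold lower at day 2 against sham (Slc4a1 and Atp6v1c2; 3.10% of genes tested), 1 at day 7 against day 2 (Slc4a1; 2.65%), 1 was higher after reversal against day 7 (Slc4a1; 2.50%) and 2 were lower after reversal against sham (Slc4a1 and Aqp6; 2.29%). Under alternatives Atp6v1c2 after reversal against sham reached -1.12 and Aqp6 after reversal against day 7 reached -1.05, past 2-fold. In the opposite direction 0 members passed, beside 18.4%, 3.51%, 1.99% and 19.6% of genes. The members' medians were -0.17, -0.28, 0.53 and -0.28, beside 0.28, -0.02, 0.07 and 0.30 over all genes tested. Kit, Dmrt2 and Adgrf5, type A genes that were used to call these cells and so describe rather than support the call, had 0 of 3 past 2-fold in any of the 4 comparisons. Other cell types' markers moved with the libraries in type A-like cells. The 9 injured-tubule markers summed to 243, 4077, 3517 and 2420 CPM, with Havcr1, Krt20, Lcn2 and Vcam1 at 0 in sham and Krt20 at 0 in every library. The 10 mononuclear phagocyte markers summed to 116, 663, 3112 and 1248 CPM, with 6 of them at 0 in sham and none elsewhere. The 10 proximal tubule markers summed to 2203, 143, 225 and 762.2 CPM and the 8 early-response genes to 232, 763, 878 and 2293. Sham was highest for the proximal markers, as for Slc4a1, and lowest for the other lists, and their part in the Slc4a1 values was not tested.

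**Figure D4:**
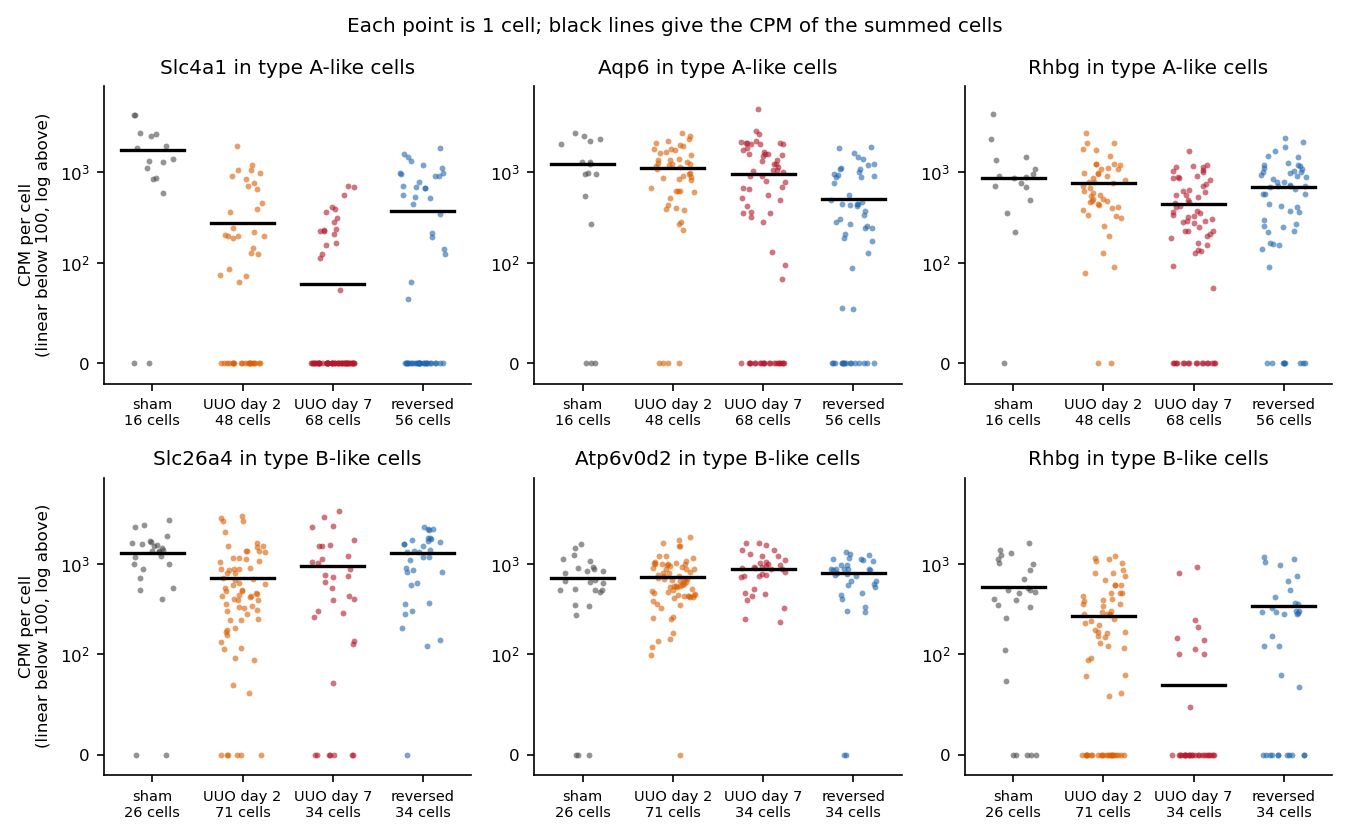
CPM per cell (axis linear below 100 and log above) of Slc4a1, Aqp6 and Rhbg in type A-like cells and of Slc26a4, Atp6v0d2 and Rhbg in type B-like cells, by library; each point is 1 cell and each black line the CPM of the summed cells. Slc4a1 is at 0 in 2 of 16 type A-like cells in sham and in 50 of 68 at day 7.

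Type A-like cells without Slc4a1 were lower in Aqp6 as a group but did not lack it. A UMI of Aqp6 was found in 30 of the 50 such cells at day 7, against 17 of the 18 cells with Slc4a1, at median depths of 7388 and 7488 UMIs. At day 7 the 50 cells without it stood at 806 CPM of Aqp6, 439 of Rhbg, 3687 of Atp6v1g3, 395 of Foxi1 and 336 of Kit, a gene used to call the type. The 18 cells with it stood at 1321 CPM of Aqp6, 486 of Rhbg, 4442 of Atp6v1g3, 363 of Foxi1 and 568 of Kit. Slc26a4, the type B gene, was found in 8 of the 50 cells (19 UMIs) and in 1 of the 18 (1 UMI). Cells without Slc4a1 at day 7 thus include some with the type B exchanger. At day 2 the 21 cells without and 27 with Slc4a1 stood at 931 and 1273 CPM of Aqp6 and at 479 and 997 of Rhbg. After reversal the 29 and 27 cells stood at 369 and 645 CPM of Aqp6 and at 365 and 978 of Rhbg, with median depths of 4804 and 10080 UMIs, so that depth differed between these cells.

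Among the genes that type B-like cells hold at more than background, Rhbg had the widest range over the libraries. It stood at 554 CPM in sham (462 to 658), 269 at day 2 (233 to 308), 69.7 at day 7 (44.7 to 104) and 343 after reversal (284 to 410), lowest at day 7 as Slc4a1 was in type A-like cells. Its log2 ratios were -1.04 (-1.37 to -0.71), -1.93 (-2.59 to -1.32), 2.28 (1.65 to 2.97) and -0.69 in the order of the comparisons above, and over the alternatives the first ran from -1.22 to -0.86, so that it did not always pass 2-fold. A UMI of Rhbg was found in 21 of 26, 48 of 71, 10 of 34 and 23 of 34 type B-like cells, and in 38.5%, 22.5%, 2.94% and 23.5% after thinning, with endothelial cells at 0.503%. Slc26a4, the type B exchanger, was not used to call these cells. It stood at 1327 CPM in sham (1183 to 1483), 700 at day 2 (642 to 763), 942 at day 7 (842 to 1050) and 1315 after reversal (1198 to 1440). It was lowest at day 2, with a log2 ratio of -0.92 to sham that ran from -1.10 to -0.86 over the alternatives, some of them past 2-fold, and after reversal its interval overlapped that of sham (-0.01).

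The rest of the set varied less in type B-like cells. Atp6v0d2 stood at 704, 707, 881 and 802 CPM, Atp6v1b1 at 665, 392, 366 and 632, Atp6v1c2 at 691, 433, 404 and 751 and Atp6v1g3 at 7990, 6187, 5411 and 6630. Foxi1 stood at 627, 428, 433 and 476 CPM and Atp6v0a4 at 605, 460, 517 and 689, so that these 6 genes also stayed within a 2-fold range, except Atp6v1c2 after reversal against day 7 in CPM without mitochondrial UMIs (1.01). Aqp6 was low throughout, at 8.59, 50.03, 26.2 and 36.8 CPM from 2, 38, 9 and 13 UMIs, and its ratio at day 7 against day 2 (-0.91) reached -1.89 under an alternative. Its ratio of 2.41 at day 2 was the 1 past 2-fold higher (11.1% of genes tested), and Rhbg the 1 past 2-fold lower (7.82%). Rhbg was also the 1 lower at day 7 against day 2 (3.16%) and the 1 higher after reversal against day 7 (3.38%), while in the opposite direction 0 members and 4.59% and 4.94% of genes passed. By then 0 of 8 members tested were past 2-fold from sham in either direction (6.14% higher and 2.03% lower). The members' median was -0.55 at day 2 against sham (-0.02 over all genes) and -0.04 after reversal against sham (0.08). In these cells the 9 injured-tubule markers summed to 343, 7097, 3653 and 1734 CPM, the 10 phagocyte markers to 81.6, 624, 2865 and 1099 and the 7 distal convoluted or connecting tubule markers to 3186, 2578, 209 and 1643. Krt20 was at 0 in every library, Pvalb at 0 in all but sham, and the distal markers were lowest at day 7, as Rhbg was. Their part in the Rhbg values was not tested.

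The exchangers of the type A and type B programmes were rarely found in the same cell. At 1000 UMIs per cell, 0 of the 150 tubule cells with Slc4a1 or Slc26a4 held both, which allows a share of up to 2.0% taken as 3 counts of the total and up to 2.43% by the exact interval. This limits joint detection and not the share of cells that express both, because thinning lowered the cells with Slc4a1 from 127 to 42 and those with Slc26a4 from 259 to 108. By library this was 0 of 42 in sham, 0 of 47 at day 2, 0 of 25 at day 7 and 0 of 36 after reversal, allowing up to 7.14%, 6.38%, 12% and 8.33% by 3 counts. At full depth 6 of 380 cells held both (1.58%, 0.582% to 3.405%), namely 2 of 83, 1 of 126, 1 of 63 and 2 of 108 by library. Of these, 5 were intercalated-like (3 type A-like and 2 type B-like), and in 4 of the 5 at least 1 of the genes was at 1 UMI. The remaining cell, from sham, held 25 Slc4a1 and 8 Slc26a4 UMIs among 12672 UMIs. It was the deepest type A-like cell of sham, where the median was 4998 UMIs, and the sham cell with the most Slc4a1 UMIs. With Aqp6 allowed in place of Slc4a1, 0 of 225 thinned cells and 43 of 509 unthinned cells (8.45%, 6.18% to 11.2%) held a type A gene and Slc26a4, and the 43 had a median of 12211 UMIs.

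**Figure D5:**
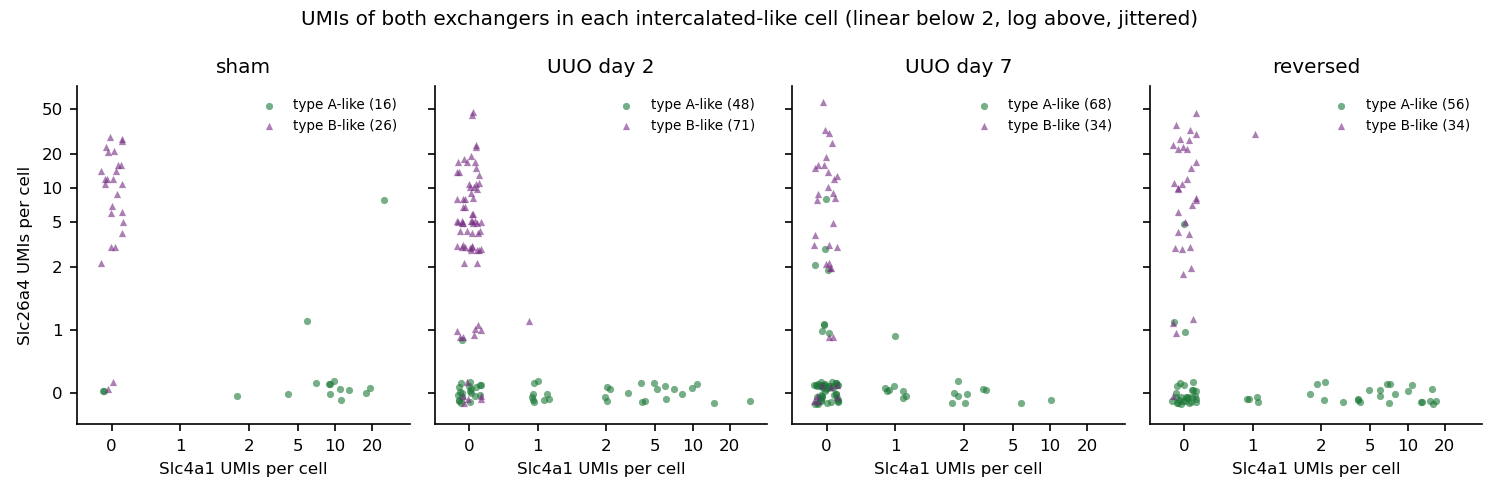
UMIs of Slc4a1 against UMIs of Slc26a4 in each intercalated-like cell, by library, unthinned, on axes that are linear below 2 and log above with points jittered; each point is 1 cell. Of 247 cells with either gene 5 hold both, and 1 sham cell holds 25 and 8 UMIs.

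Each type gene travelled with different members at equal depth. Of 37 thinned intercalated-like cells with Slc4a1, 51.4% also held Aqp6 (34.4% to 68.1%), against 19.6% of the rest, and 64.9% held Rhbg against 27.5%. None held Slc26a4, against 25.9% of the rest. Of 82 cells with Slc26a4, 17.1% held Rhbg against 35.8% of the rest, and 95.1% held Atp6v1g3 against 91.5%.

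Intercalated-like cells in which neither exchanger was seen were most frequent in the day 7 library. They were 4 of 42 in sham (9.52%, 2.66% to 22.6%) and 26 of 119 at day 2 (21.8%, 14.8% to 30.4%). The day 7 library had 49 of 102 (48.0%, 38.0% to 58.2%) and the reversed library 27 of 90 (30%, 20.8% to 40.6%). Of these 106 cells, 90 were type A-like and 16 type B-like. After thinning the shares were 35.7%, 66.4%, 77.5% and 67.8%, with sham lowest and day 7 highest in both readings.

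Cells with Slc4a1 alone (83) and with Slc26a4 alone (159) were compared over 8273 genes, as a description with a pseudocount of 10 CPM. The genes highest in the Slc4a1 cells were Aqp6 (log2 ratio 3.97), Kit (3.83), Mme (3.39), 2610016A17Rik (3.27) and Dmrt2 (2.83). The genes lowest in them were Hmx2 (-6.02, -6.21 to -5.38, from 1 UMI against 1222), Insrr (-3.86), Igfbp5 (-3.68), Cxcl17 (-3.27) and Cp (-3.14). All 10 had the same sign in each library, but for Cxcl17 and Cp the library nearest to 0 was at -0.53. Kit, Dmrt2, Hmx2 and Insrr had been used to call the types of these cells. Oxgr1, used for type B, was higher in the Slc4a1 cells (0.79, 0.56 to 1.03), with the same sign in each of the 4 libraries. Mme encodes neprilysin, a membrane peptidase, Igfbp5 a binding protein of insulin-like growth factors and Cp the copper oxidase ceruloplasmin. Among the members Rhbg was 1.57 and Atp6v1b1 0.65 higher in the Slc4a1 cells, Atp6v1c2 (-0.43) and Atp6v1g3 (-0.39) were lower, and Foxi1 (0.12), Atp6v0a4 (0.17) and Atp6v0d2 (-0.16) differed little.

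Over 45 sums of a cluster within a library, 7 of them intercalated-like, the genes whose level was most like the log2 summed level of the members were Gm12121 (Pearson's r 0.95), Asb15 (0.95), Cpsf4l (0.94), Atp6v1a (0.94) and Klkb1 (0.94), out of 13123 genes. Atp6v1a is the catalytic subunit of V1 that the members' pump shares with all cells. The members' own r ranged from 0.52 for Slc4a1 to 0.94 for Atp6v1g3. Each member is a part of the summed level, of which Atp6v1g3 supplied 43.3% to 54.8% in tubule cells. Their r are therefore not comparable with those of genes outside the set. The 45 cluster sums share libraries and depths, and r is given as a description.

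The wider pathway gives the scale of these values in tubule cells at day 2 against sham. Of 17 widely expressed V-ATPase subunit genes 0 were past 2-fold in either direction, with a median log2 ratio of 0.20, where 20.4% of all genes were higher, 3.98% lower and the median was 0.49, and 8 of the 10 members were higher. Of 17 other intercalated genes 10 were past 2-fold higher, with a median of 1.31, and of 11 principal cell genes 6 were. Of 7 acid-base genes of the proximal tubule 1 was higher and 3 were lower, with a median of -0.97. All 8 early-response and stress genes were past 2-fold higher.

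Pump and intercalated genes outside the set were also read within intercalated-like cells. The widely expressed subunits had medians of -0.34, 0.21, 0.17 and -0.12 in the 4 comparisons, and 1 of 15 tested was past 2-fold, Atp6ap2, an accessory subunit of the pump, at -1.30 at day 2 against sham. The other intercalated genes had medians of -0.46, -0.12, 0.53 and -0.35, close to those of the 10 members, where the medians of all genes were 0.08, 0.10, 0.02 and 0.18. At day 2 against sham 3 of 17 were past 2-fold lower (3.48% of all genes), namely Car12, a membrane carbonic anhydrase (-1.48), Insrr, an alkali-sensing receptor of type B cells (-1.84), and Oxgr1, a 2-oxoglutarate receptor (-1.61), and 1 was higher, P2ry14 (1.56; 10.8% of all genes). After reversal against day 7, Insrr (1.87), Bsnd (1.37) and Hmx2 (1.03), 3 of 16, were past 2-fold higher (1.79% of all genes), and at day 7 against day 2 Insrr was lower (-1.41; 1.72%). After reversal against sham 3 of 16 were higher (10.3%), P2ry14 (1.81), Dmrt2 (1.48) and Kit (1.07), and 3 were lower (1.86%), Insrr (-1.38), Oxgr1 (-1.29) and Spink8 (-1.09). Car12, Insrr, Oxgr1, Hmx2, Dmrt2 and Kit were among the genes used to name the clusters or their types.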

How the data were processed

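The deposited droplet matrices hold UMI counts per gene and cell, and the deposited Smart-seq2 table holds read counts per gene and well; per the submitters' processing notes, Cell Ranger, STAR and GRCm38/mm10 were used, and versions are not given in the sources used here. Cells with under 200 genes or over 50% mitochondrial UMIs were left out, and the cells with the highest Scrublet scores (0.8% per 1000 cells) were removed as doublets. Clusters were made with scanpy 1.11.5 (2000 variable genes without the 10 genes, 30 components, 15 neighbours, Leiden resolution 1, no batch correction), and those with immune or vessel markers are not tubule. UMIs were summed per library and class, and log2 ratios used CPM with a pseudocount of 1, over genes with at least 30 UMIs. That minimum was not set between intercalated-like and other tubule cells. Intervals are exact Poisson for levels, Clopper-Pearson for shares and conditional binomial for ratios. Thinning drew 1000 UMIs per cell without replacement; TMM factors came from edgeR 4.0.16, and the ratio code was tested on simulated data. Genes outside the set were named by a rule: the 5 most correlated with the set, and the 5 highest and lowest between cells with Slc4a1 and cells with Slc26a4. The genes, lists and settings were chosen with earlier results of these data known, and 8 kinds of setting were added after the data were seen.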

Additional observations from a re-analysis of the deposited data

Results flagged for a closer look

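The Smart-seq2 wells, which no comparison uses because their time points are mixed, held signal of the 10 genes: 6 of 768 wells had at least 10 reads of at least 1 of them. In most wells the reads were of other cells, with at least 10 reads of Ptprc in 456 wells and of Csf1r, a macrophage receptor, in 605. There was 1 well with all 10 genes (1653 reads of Atp6v1g3, 536 of Foxi1, 378 of Atp6v1b1, 296 of Slc26a4, 214 of Aqp6 and 176 of Slc4a1 among 902238 gene reads), in which Csf1r had 1025 reads and Ptprc 5. Another well held 5 of them (2018 reads of Slc26a4, 1113 of Atp6v1g3, 355 of Atp6v0d2, 122 of Atp6v0a4 and 35 of Rhbg among 168521 gene reads) and no read of Slc4a1 or Aqp6. These are reads and not UMIs, and no control wells were labelled.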

How the results depend on the processing

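No paired analysis was possible because each time point has 1 library. The summed tubule level at day 2 against sham (log2 1.58) was 1.00 with cells of at most 20% mitochondrial UMIs, 1.67 with doublets kept, 1.31 in CPM without mitochondrial UMIs, 1.53 with no condition on Ptprc, 1.06 with TMM factors and 1.26 without Atp6v1g3. At day 7 against day 2 (-0.09) the same settings gave -0.54, -0.043, -0.21, 0.012, -0.45 and 0.067, and tubule cells called one by one gave 0.00394, so its direction depends on the setting. After reversal against day 7 (-0.51) the value was 0.14 at 20% mitochondrial UMIs, which turns the direction, and -0.30 without mitochondrial UMIs, -0.68 one by one, -0.45 with no condition on Ptprc, -0.15 with TMM and -0.40 without Atp6v1g3. After reversal against sham (0.98) it was 0.59 at 20% mitochondrial UMIs, 1.10 with doublets kept and with no condition on Ptprc, 0.81 without mitochondrial UMIs, 0.90 one by one, 0.46 with TMM and 0.93 without Atp6v1g3. The intercalated-like share was 2.68% in sham, 16.5% at day 2 and 11.9% after reversal at 20% mitochondrial UMIs. By at least 2 shared genes it was 2.11% in sham. Outside the proximal tubule it was 10.9%, 17.5% and 17.1% in sham, at day 7 and after reversal. Among intercalated-like and principal-like cells together it was highest at day 2. The median ratio in intercalated-like cells was -0.23 at day 2 against sham in type A-like cells. It was 0.15 after reversal against day 7 in cells with at least 2 other shared genes. After reversal against sham it turned to 0.053 in type B-like cells. The type A-like and type B-like values here cover all members, including those with too few UMIs to be tested. The medians given above for each type cover the members tested only, and in type B-like cells that median stayed below 0 after reversal against sham. Genes past 2-fold in tubule cells at day 2 against sham were 5 without mitochondrial UMIs (15% of all genes), 4 with TMM (10.5%) and 5 at 20% (8.60%), against 8 as reported; after reversal against sham they were 3 (15.1%), 1 (9.25%) and 3 (12%), against 6, and after reversal against day 7 0 were lower at 20% (2.18%). In intercalated-like cells 1 was higher at day 2 at 20% (20.2% of all genes), and 2 were lower after reversal against sham without mitochondrial UMIs (3.80%) and with TMM (3.76%). For these differences the cause was not tested. Slc4a1 in type A-like cells kept its direction under the alternatives run, at -2.96 to -2.62, -2.06 to -1.69, 2.13 to 2.48 and -2.82 to -2.13 in the 4 comparisons, of which the 20% setting leaves 2 sham cells. With 16 type A-like and 26 type B-like cells in sham, the number of cells limits every value set against sham.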
